A study of Mus musculus with 24 samples.

Results

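Knockdown of Cop1 was compared with a control knockdown in mouse embryonic fibroblasts that had received Dexa, by mRNA sequencing of 6 of the 24 libraries of the series. The libraries were chosen by their labels alone, 3 labelled siCop1, DMSO and Dexa and 3 labelled siCTRL, DMSO and Dexa, and every gene in the count table entered the comparison. All cells were of wild-type genotype, and both groups shared the vehicle DMSO and Dexa, so that the siRNA is the only labelled difference between them. The series crosses this factor with the small molecule KL001, a stabiliser of cryptochrome proteins, and with the presence of Dexa, and its title asks how cryptochromes act on assembly of the Cop1 ligase. Dexa is written as the labels give it. The sources used here give no doses, exposure times, siRNA sequences or origin of the fibroblasts. No label says that the replicates were separate cultures, so p-values measure the spread between these samples, which may be technical.

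Cop1 is the substrate receptor of an E3 ubiquitin ligase built on a cullin scaffold with Ddb1 and Det1. It marks transcription factors such as Jun and the PEA3 group of ETS factors for degradation, and Tribbles proteins act as adaptors for other substrates. Cryptochromes, repressors of the circadian clock, can bind Cop1. Because the ligase acts on proteins, the mRNA of a substrate does not report the substrate's protein level, which was not measured here.

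The 6 libraries held 23373824 to 25998783 counts, within the 21409988 to 27875023 of the whole series, and 6.76% to 7.47% of the counts of a library fell on its 10 leading genes. All 14 fibroblast markers were present, and their summed level was 47646, 48197 and 47881 CPM (counts scaled to the size of the library) in siCTRL against 42503, 40998 and 42604 CPM in siCop1. The collagen genes Col1a1 and Col1a2 were the 2 of these 14 that changed, and 4 changed with library totals as the scale. A pair of libraries stood apart in markers of other cell types. The 12 cardiac muscle markers summed to 129 CPM in siCTRL replicate 2 and to 9.81 and 7.09 CPM in the other siCTRL libraries. Myh6, a cardiac myosin chain, was at 29.96 CPM in siCTRL replicate 2 and at 0 in both other siCTRL libraries. The 12 squamous epithelium markers summed to 102 CPM in siCop1 replicate 1 and to 24.5 and 25.8 CPM in the other siCop1 libraries. In overall counts siCTRL replicate 1 stood apart from its group, with a chi-square per degree of freedom of 5.54 and 4.83 against the other siCTRL libraries, which differed from each other by 1.90. Some counts below are also given without one of these libraries, and the other counts rest on all 6 libraries. In bulk RNA, fewer cells of a type and less RNA per cell cannot be told apart.

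**Figure D1:**
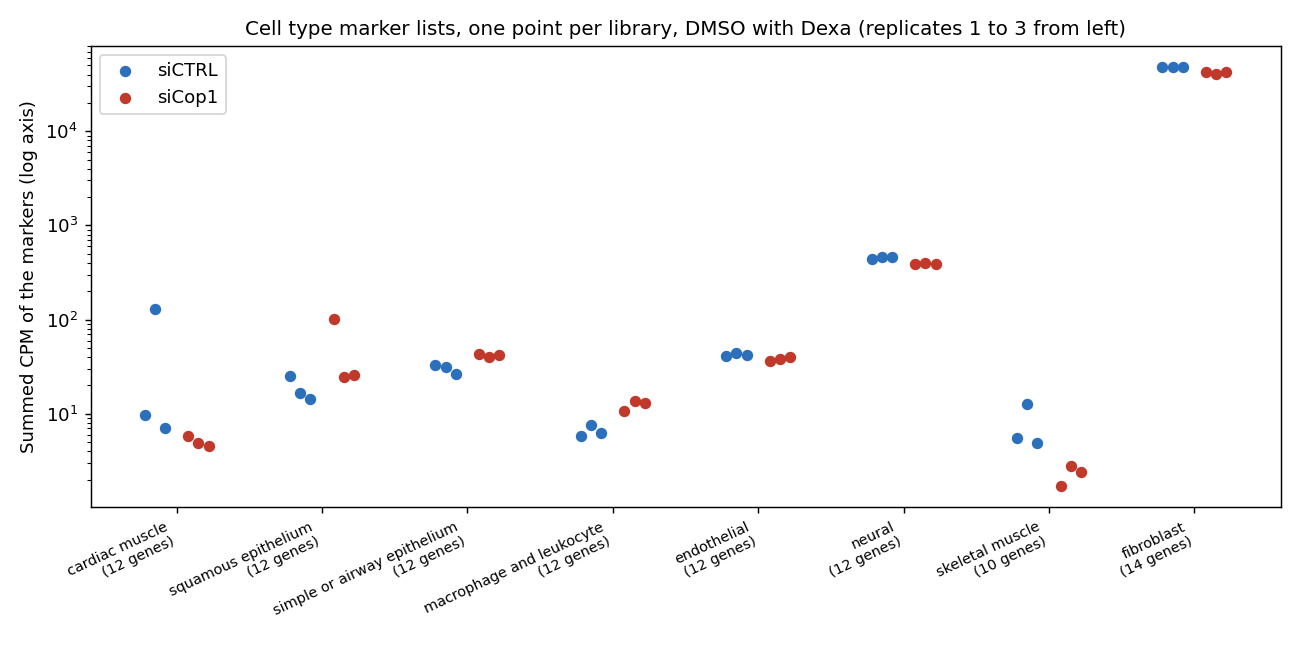
Summed CPM (log axis) of the markers of 8 cell types in each of the 6 libraries, siCTRL in blue and siCop1 in red, 1 point per library. The cardiac sum of siCTRL replicate 2 (129 CPM) and the squamous sum of siCop1 replicate 1 (102 CPM) lie above their group's other libraries, while the fibroblast sums lie between 40998 and 48197 CPM.

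The level of Cop1 itself served as a check of the siRNA labels. The gene, named in the count table by its older symbol Rfwd2 (chr1:159232156-159354872, GRCm38.p6), stood at 25.3, 26.4 and 24.99 CPM in the siCTRL libraries and at 4.41, 4.47 and 4.86 CPM in the siCop1 libraries. The groups did not overlap, and 18.0% of the control level remained. The fold change on the log2 scale was -2.48 ± 0.075 (SE, n = 3 per group; edgeR quasi-likelihood test, Benjamini-Hochberg adjusted p = 1.4e-20). All 6 libraries therefore matched their siRNA labels. The level of Cop1 does not check the labels for DMSO and Dexa.

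Of 14772 genes tested, 4599 changed between the groups (31.1%; edgeR, adjusted p below 0.05), 2126 higher (14.4%) and 2473 lower (16.7%) with siCop1. Without siCTRL replicate 1, 3904 genes changed, and 3571 of the 4599 (77.6%) were among them. Most changes were small. Among the 4599 there were 2861 changed genes under 1.25-fold, 948 between 1.25-fold and 1.5-fold, 462 between 1.5-fold and 2-fold, 280 between 2-fold and 4-fold, and 48 of at least 4-fold. Of the 328 genes past 2-fold, 184 were higher and 144 lower. In 6428 genes (43.5%) all 3 libraries of a group lay above all 3 of the other, and 4431 of the changed genes were among them. The median fold change over all genes tested was 0.00 (log2). With library totals alone as the scale, a setting added after seeing the data, the median rose to 0.05 and the split became 3142 higher and 1786 lower, so 63.8% of the calls were higher against 46.2% with TMM scaling.

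**Figure D2:**
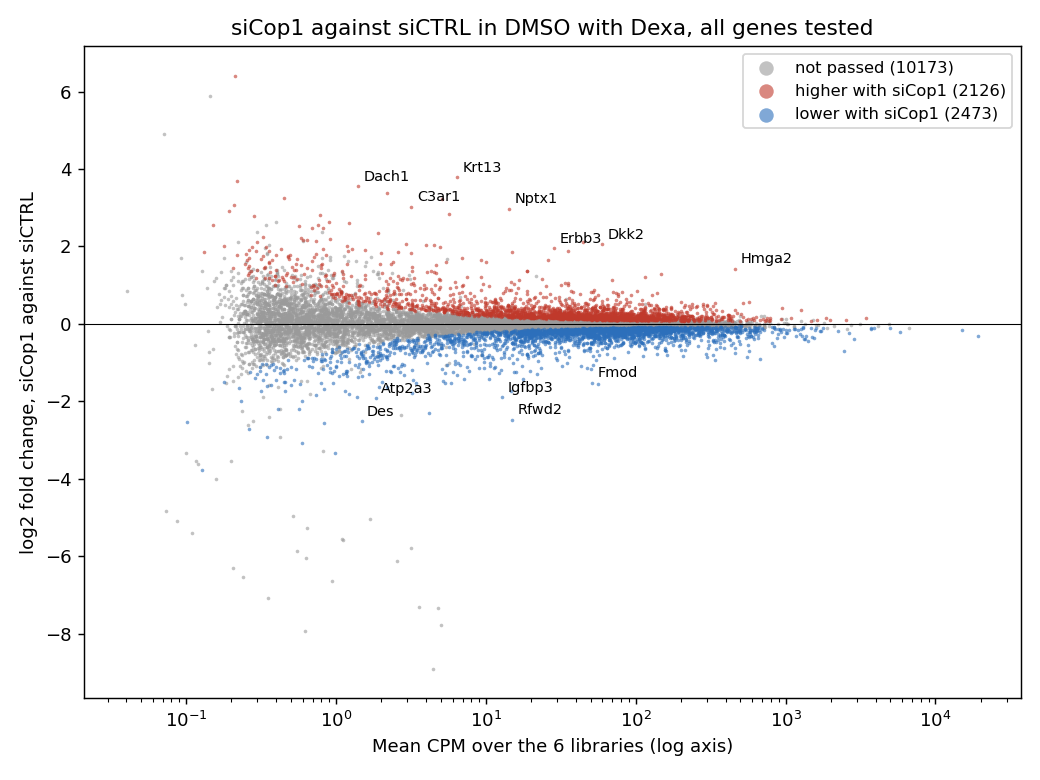
Fold change of every tested gene (log2, siCop1 against siCTRL) against its mean CPM over the 6 libraries (log axis), 1 point per gene. Red points are the 2126 genes called higher, blue points the 2473 called lower and grey points the 10173 that did not pass; the unlabelled grey points at the lower left are genes of low level, the cardiac markers of siCTRL replicate 2 among them.

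Counts of list members are read here against the shares over all genes, 31.1% changed, 14.4% higher and 16.7% lower. The lists below and their members were chosen with earlier results of these data known. A share above that of all genes may therefore follow from the choice, and no list was tested as a set. Of 14 genes for the ligase and its adaptors, 3 were lower, Cop1 itself included, and 1 was higher, a share of 28.6% that lay near the background, and the list's median was -0.05. The pseudokinase Trib3, an adaptor, fell from 148, 138 and 144 CPM to 78.3, 80.5 and 81.8 CPM (log2 fold change -0.84 ± 0.038, SE; edgeR, adjusted p = 1.7e-16). Ddb1, the linker between cullin and receptor, fell by 0.11 on the log2 scale. The call for the adaptor Trib1 (log2 fold change 0.22; adjusted p = 0.016) was lost when siCTRL replicate 1 (adjusted p = 0.133), siCop1 replicate 1 (0.0659) or siCop1 replicate 2 (0.057) was left out. Det1 (-0.09), Dda1 (-0.11), Cul4a (-0.05), Cul4b (0.06), Rbx1 (-0.04), and Trib2 (0.11) did not pass. Trib2 passed as higher without siCTRL replicate 2 (0.13; edgeR, adjusted p = 0.0351) and with library totals as the scale (0.15; 0.0051). Dda1 passed as lower in a fit of the compared groups alone (-0.10; 0.0421).

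Among 14 genes for described Cop1 substrates, 4 were higher, 3 lower and 7 did not pass, with a median of 0.06, against 14.4% higher and 16.7% lower over all genes. Jun, the AP-1 subunit that the ligase degrades, rose from 63.9, 68.6 and 70.5 CPM to 104, 106 and 104 CPM (log2 fold change 0.63 ± 0.038, SE; edgeR, adjusted p = 1.1e-13), with no overlap. Foxo1, a transcription factor of insulin signalling, rose by 0.38 on the log2 scale, the lipogenic enzyme gene Acaca by 0.20 and the CREB coactivator gene Crtc2 by 0.19. Among the ETS factors, Ets1 was at 72.5, 76.2 and 77.6 CPM and fell to 58.4, 56.1 and 54.9 CPM (-0.42). Etv5 fell from 12, 11.6 and 12.4 CPM to 9.43, 10.1 and 10.9 CPM (-0.24; adjusted p = 0.0067). Etv4 (0.14; adjusted p = 0.067), Etv1 (-0.34), Ets2 (0.06), Cebpa (0.06), Cebpb (-0.05), Mta1 (-0.07) and Trp53 (0.10; adjusted p = 0.052) did not pass. Etv4 passed as higher without siCop1 replicate 2 (0.19; adjusted p = 0.0225) and with library totals as the scale (0.18; 0.0178), and Ets2 passed with that scale (0.11; 0.0387). In other settings Etv4 went the other way. It was called lower with siCop1 in DMSO without Dexa (-0.22; edgeR, adjusted p = 0.0018) and was at -0.09 in KL001 with Dexa. Mta1 passed as lower without siCTRL replicate 3 (-0.09; 0.0472). Trp53 passed with RLE scaling (adjusted p = 0.0466), DESeq2 (0.0486), library totals (0.0050) and without siCop1 replicate 3 (0.0377).

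The AP-1 family divided. Of 12 subunits and relatives, 3 were higher and 7 lower, and the median was -0.20. Fosl1, the Fos relative also called Fra-1, rose from 11.3, 9.52 and 10.3 CPM to 25.7, 26.3 and 29.1 CPM (log2 fold change 1.38 ± 0.065, SE; edgeR, adjusted p = 4.7e-16). Fosb rose from 4.98, 5.22 and 4.54 CPM to 7.37, 6.90 and 6.59 CPM (0.50). The other Jun genes moved the other way from Jun: Junb fell by 0.44 and Jund by 0.36 on the log2 scale. The stress factor gene Atf3 fell from 21.2, 20.1 and 20.0 CPM to 12.4, 15.2 and 13.7 CPM (-0.57). Jdp2, a repressor within the family, fell by 0.20, and Fos itself (-0.31) did not pass.

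A few protease and receptor genes that AP-1 is known to drive are shown with the sequence upstream of their annotated starts, as examples of the members that rose in the target list described next. Sequences are from RefSeq (GRCm38.p6, plus strand, 5′ to 3′), and capitals mark a match to the AP-1 motif TGANTCA, a motif that reads the same on both strands.
Mmp3, chr9:7445736-7445821: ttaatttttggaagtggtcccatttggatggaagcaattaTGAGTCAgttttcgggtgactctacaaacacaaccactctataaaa
Mmp10, chr9:7502239-7502325: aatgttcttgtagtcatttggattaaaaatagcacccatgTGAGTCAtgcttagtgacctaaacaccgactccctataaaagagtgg
Mmp13, chr9:7272439-7272513: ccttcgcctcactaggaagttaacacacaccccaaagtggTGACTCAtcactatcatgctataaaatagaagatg
Plaur, chr7:24462374-24462460: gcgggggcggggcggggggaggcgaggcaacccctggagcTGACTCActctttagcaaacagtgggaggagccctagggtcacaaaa
The first motif base lay at -46 from the start in Mmp3, -63 in Mmp10, -35 in Mmp13 and -69 in Plaur. The motif was searched in the 250 bases upstream of each start. It was found for 6 of the 14 tested genes of the list that have a promoter in the table, the other two being Lif, which fell (log2 fold change -0.69), and Il11, which did not pass (-0.19), against 622 of 10498 tested genes (5.92%) and 2217 of all 32851 promoters (6.75%). A match is a run of letters and not a measured binding site. The list was made of known ETS or AP-1 targets, so a share above that of all genes may follow from this choice. The upstream windows of Hmga2, Mmp14 and Cd44 held no match.

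Of 22 tested genes known as ETS or AP-1 targets, 14 were higher, 6 lower and 2 did not pass, which is 90.9% changed against 31.1% of all genes, with a median of 0.31 against 0.00. Matrix-degrading enzymes were among the higher genes. Mmp3, stromelysin-1, rose from 17.2, 16.8 and 15.9 CPM to 71.9, 75.8 and 70.1 CPM, a 4.36-fold change (log2 2.12 ± 0.093, SE; edgeR, adjusted p = 7.3e-14). Mmp9, a gelatinase gene, rose from 0.856, 1.27 and 0.877 CPM to 3.24, 2.85 and 2.67 CPM (1.55). Mmp13 (2.16) and Mmp10 (2.79) also rose, although both rested on few reads, with Mmp10 below 0.1 CPM in each siCTRL library and at 0.526, 0.540 and 0.432 CPM in siCop1. Mmp14, the membrane-anchored collagenase, rose from 807, 808 and 834 CPM to 1087, 1092 and 1080 CPM (0.41).

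Hmga2, an architectural chromatin protein of embryonic and transformed cells (chr10:120361268-120476469), had the smallest p-value of all genes tested. It stood at 241, 251 and 258 CPM in the siCTRL libraries and at 658, 692 and 666 CPM in siCop1, a 2.69-fold rise (log2 1.43 ± 0.030, SE; edgeR, adjusted p = 4.1e-24). Its relative Hmga1 rose from 14.8, 14.6 and 14.5 CPM to 33.6, 33.6 and 31.8 CPM (1.17). In neither gene did the groups overlap. Components of cell-surface signalling rose as well. Plaur, the urokinase receptor, rose from 12.8, 12.1 and 11.9 CPM to 18.3, 18.9 and 18.0 CPM (0.58), and the EGF receptor ligand genes Hbegf (0.60) and Ereg (0.45), the hyaluronan receptor gene Cd44 (0.44) and Phlda1 (0.92) rose with it. Tgfa, another EGF receptor ligand gene, went down, from 26.5, 30.2 and 30.3 CPM to 17.3, 16.2 and 18.2 CPM (-0.75). Lif (-0.69), Vegfa (-0.32) and Hmox1 (-0.26) fell too, and the cyclin D1 gene Ccnd1 (0.03) did not pass.

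Of 20 feedback inhibitors and early response genes of the ERK pathway, 7 were higher and 1 lower, with a median of 0.01. The share changed (40%) lay near the 31.1% of all genes, but most of the changes were increases. Over all genes, 14.4% were higher and 16.7% lower. Dusp6, the phosphatase that inactivates ERK, went from 21.4, 22.5 and 21.8 CPM to 44.7, 46.3 and 46.2 CPM (log2 fold change 1.06 ± 0.047, SE; edgeR, adjusted p = 1.3e-16). Its relative Dusp4 (1.01), the Sprouty gene Spry2 (0.43), Lonrf3 (0.98) and Myc (0.40) rose, and the immediate early gene Ier2 fell by 0.33 on the log2 scale. Dusp4 and Lonrf3 were of low level, with means of 0.62 and 0.53 CPM in siCTRL and 1.26 and 1.05 CPM in siCop1. The call for Dusp4 was lost without both siCTRL replicate 2 and siCop1 replicate 1 (edgeR, adjusted p = 0.0611). In DMSO without Dexa, 14 of the 20 changed with siCop1, against 29.4% of all genes. In KL001 with Dexa, 11 of the 20 changed, against 30.1% of all genes. The counts of the settings were not tested against each other.

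**Figure D3:**
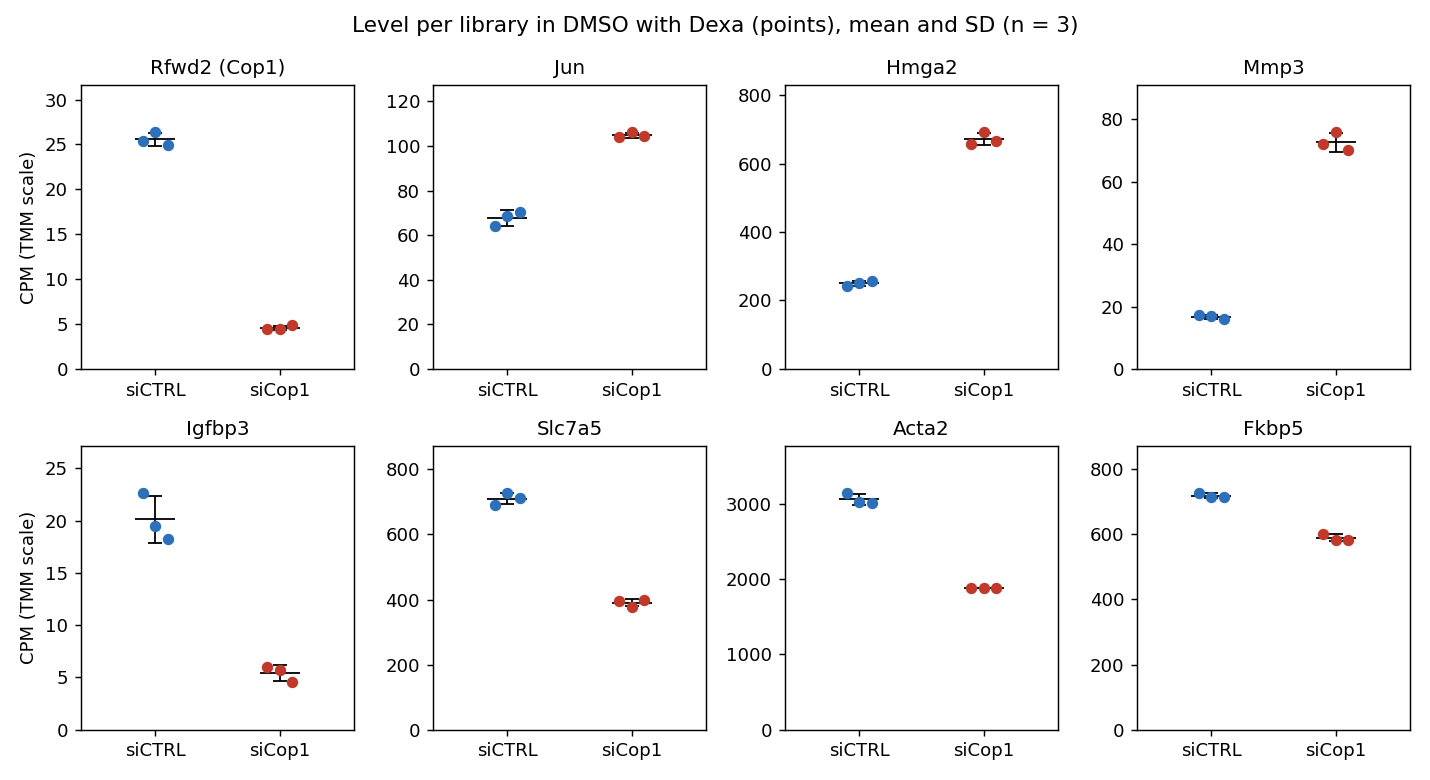
CPM (TMM scale, axes from 0) of 8 genes in each library, siCTRL in blue and siCop1 in red, with bars for the mean and SD of 3 libraries. Cop1, Igfbp3, Slc7a5, Acta2 and Fkbp5 were lower and Jun, Hmga2 and Mmp3 higher in all 3 siCop1 libraries than in any siCTRL library.

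The largest increases at a mean of at least 1 CPM were in genes of diverse kinds. Nptx1, a secreted neuronal pentraxin, rose 7.89-fold, from 3.46, 3.11 and 3.07 CPM to 26.5, 22.8 and 27.1 CPM. Dach1, a transcriptional cofactor of organ development, rose from 0.234, 0.219 and 0.199 CPM to 3.08, 2.62 and 2.12 CPM, 11.7-fold. C3ar1, the complement C3a receptor, rose 8.14-fold and the chloride channel family member Clic5 7.10-fold. The secreted Wnt modulator Dkk2 rose from 22.8, 23.8 and 22.8 CPM to 93.7, 96.8 and 97.9 CPM, 4.16-fold. Each of these genes had adjusted p at or below 6.5e-12 (edgeR). No overlap between the groups was a condition for naming the largest changes. Erbb3, a receptor for neuregulins, rose from 10.7, 12 and 12.8 CPM to 45.2, 45.9 and 45.5 CPM (3.86-fold), and the protocadherin gene Pcdh20 rose 3.12-fold. The urea transporter gene Slc14a1 (log2 fold change 2.60), the serotonin receptor gene Htr2a (2.04) and the phosphatase gene Ptpn22 (2.03) also rose, and their calls held when each library was left out.

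A few increases in genes that are themselves markers of other cell types depended on single libraries. Krt13, a keratin of squamous epithelium, was at 1.36, 0.395 and 0.797 CPM in siCTRL and at 30.6, 2.35 and 3.33 CPM in siCop1 (log2 fold change 3.79; adjusted p = 0.0049), and without siCop1 replicate 1 it was at 1.71 with adjusted p = 0.0675. Of the squamous markers 4 were higher, with 0 without that library and 1 without siCTRL replicate 2 or 3. Of the 12 simple or airway epithelium markers 3 were higher, Pigr, Epcam and Muc1, with sums of 32.8, 31.1 and 26.3 CPM in siCTRL and 43.5, 40.5 and 41.6 CPM in siCop1. Only Pigr of these 3 kept its call whichever library was left out. That for Epcam was lost without any 1 of the 6 libraries (adjusted p from 0.0632 to 0.121), and that for Muc1 without any 1 other than siCTRL replicate 2 (0.0521 to 0.147). The macrophage and leukocyte markers summed to 5.80, 7.59 and 6.22 CPM in siCTRL and to 10.6, 13.7 and 13.2 CPM in siCop1, and 4 of 5 tested changed, 3 higher and 1 lower. Among these, the lysozyme gene Lyz2 (2.08; adjusted p = 0.0496) was no longer called without siCop1 replicate 2 (0.15), siCop1 replicate 3 (0.0978), siCTRL replicate 1 (0.152) or siCTRL replicate 3 (0.135), and each of these omissions left 2 of the 4 calls. Whether other cells took part in these changes was not tested.

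Fewer genes fell than rose by large factors, with 12 lower and 36 higher at 4-fold or more. Igfbp3, a binding protein for insulin-like growth factors (chr11:7206086-7215498), fell 3.71-fold, from 22.7, 19.5 and 18.3 CPM to 6.03, 5.71 and 4.55 CPM (log2 -1.89 ± 0.11, SE; edgeR, adjusted p = 4.5e-14). Lims2, an adaptor of focal adhesions, fell 3.31-fold, from 24.4, 22.4 and 20.7 CPM to 7.0, 6.75 and 6.67 CPM. Fmod, a proteoglycan that binds collagen fibrils, fell 2.87-fold, from 79.5, 73.9 and 75.3 CPM to 25.7, 28 and 25.9 CPM. In all 3 genes the groups were far apart relative to their spread. The calcium pump gene Atp2a3 (log2 fold change -1.91), the proline oxidase gene Prodh (-1.78), AU021092 (-1.89), Map3k7cl (-1.81) and Wscd2 (-1.64) were lower as well. Tinagl1, a matrix protein, fell by 1.17 and the water channel gene Aqp1 by 0.78 on the log2 scale, with adjusted p = 1.3e-18 for both (edgeR). Genes of muscle were also on this side. Cox6a2, a muscle isoform of a respiratory chain subunit and one of the cardiac markers, went from 5.49, 10.7 and 4.58 CPM to 1.30, 1.43 and 1.45 CPM (-2.29). The call for the muscle filament gene Des (-2.51; adjusted p = 0.0358) rested on siCTRL replicate 2 at 5.35 CPM and was at -1.36 with adjusted p = 0.285 without it. Without siCop1 replicate 1, 2 or 3 its adjusted p was 0.0868, 0.0852 or 0.0935.

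Genes of the amino acid and unfolded protein responses were largely lower. Of 24, 20 were lower and 0 higher, 83.3% changed against 31.1% of all genes, with a median of -0.39. Atf4, the transcription factor of the integrated stress response, fell from 630, 596 and 612 CPM to 481, 485 and 474 CPM (log2 fold change -0.35 ± 0.029, SE; edgeR, adjusted p = 5.9e-11). Slc7a5, the light chain of the large neutral amino acid transporter, fell from 692, 727 and 712 CPM to 396, 377 and 399 CPM (-0.86), and its heavy chain Slc3a2 from 575, 548 and 556 CPM to 358, 362 and 364 CPM (-0.63). No library of a group reached the other group in these genes. Enzymes of serine and asparagine synthesis fell, with Phgdh at -0.58, Psat1 at -0.42 and Asns at -0.56. The stress factor gene Ddit3, also called Chop, fell by 0.55 and the ER chaperone gene Hspa5 by 0.24 on the log2 scale.

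Contractile genes were lower. Of 18 genes of smooth muscle contraction and of the SRF pathway, 15 were lower and 0 higher, 83.3% changed against 31.1% of all genes, with a median of -0.35. Acta2, smooth muscle actin, went from 3140, 3025 and 3006 CPM to 1886, 1880 and 1880 CPM (log2 fold change -0.70 ± 0.026, SE; edgeR, adjusted p = 1.9e-18). Actg2, the enteric actin, went from 68.2, 63.8 and 62.2 CPM to 30.2, 29.1 and 29.6 CPM (-1.13). The actin-binding genes Cnn1 (-0.77) and Tagln (-0.69), the myosin light chain gene Myl9 (-0.40) and its kinase Mylk (-0.37) fell with them. Markers of other muscle moved with this group. The 10 skeletal muscle markers summed to 5.57, 12.6 and 4.94 CPM in siCTRL and to 1.70, 2.78 and 2.43 CPM in siCop1, and 2 of the 4 tested, Acta1 and Tnni2, were lower, while Myod1 and Myog were at 0 in all 6 libraries. The cardiac sum of siCTRL replicate 2 was the high one given above. Without siCTRL replicate 2, 12 of the 18 contractile genes were called and Acta2 was at -0.71. The part of other muscle in the result was not tested.

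Matrix genes fell more often than they rose. Of 19 collagen genes, 3 were higher and 9 lower (median -0.10), and of 26 genes of elastic fibres and other matrix 4 were higher and 13 lower (median -0.14). Col1a1, a chain of type I collagen, went from 20932, 21459 and 21155 CPM to 17578, 16345 and 17718 CPM (log2 fold change -0.30). Col11a1 fell by 0.45 on the log2 scale. Fbln5, needed for elastic fibre assembly, went from 522, 514 and 512 CPM to 351, 350 and 365 CPM (-0.54 ± 0.027, SE; edgeR, adjusted p = 2.5e-15), and elastin itself (Eln, -0.46), Fbn1 (-0.36), Mfap4 (-1.0), Mfap2 (-0.83) and periostin (Postn, -0.43) were lower. Some matrix genes of provisional tissue rose: the proteoglycan gene Vcan from 428, 480 and 479 CPM to 682, 686 and 683 CPM (0.56), Thbs2 from 53, 55.9 and 60.7 CPM to 97.2, 97.7 and 93.1 CPM (0.76), and Fbln2 by 0.37.

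Secreted growth factor systems changed unevenly. Of 13 genes of the IGF axis 7 were lower and 0 higher (median -0.37). Besides Igfbp3 these were the binding protein gene Igfbp4, from 446, 409 and 406 CPM to 266, 263 and 273 CPM (log2 fold change -0.65), the protease gene Pappa that cleaves it (-1.09), Igfbp7 (-0.49), Htra1 (-0.37), Igfbp6 (-0.20) and the noncoding RNA H19 (-0.94). The call for Igfbp6 was lost without siCop1 replicate 2 (adjusted p = 0.0799) or siCTRL replicate 1 (0.102). Of 24 BMP and TGF-beta genes, 5 were higher and 11 lower (median -0.12). The BMP readout genes Id1 (-0.61), Id2 (-0.92) and Id3 (-0.44) all fell, with Id1 at 65.4, 56.6 and 59.1 CPM in siCTRL and 39.0, 38.3 and 41.3 CPM in siCop1. The ligand gene Bmp4 fell by 0.48, and the BMP antagonist Grem1 rose from 54.5, 60.7 and 58.9 CPM to 99.5, 103 and 108 CPM (0.83), while the antagonists Nog (-1.50) and Fst (-0.49) were lower.

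Wnt genes changed in both directions. Of 23 genes 4 were higher and 7 lower, 47.8% changed against 31.1% of all genes, with a median of -0.12. Against the rise of Dkk2, the secreted Frizzled-related gene Sfrp2 fell from 922, 890 and 850 CPM to 466, 457 and 486 CPM (log2 fold change -0.92 ± 0.033, SE; edgeR, adjusted p = 1.3e-18), and Frzb (-1.23), Dkk3 (-1.13) and the ligand gene Wnt4 (-1.26) fell. Among 13 YAP targets and CCN genes 6 were lower and 1 higher, with Amotl2 at -0.40, Cyr61 at -0.26 and Ctgf at -0.24. Of 30 angiogenic and other vascular ligands 7 were higher and 10 lower (median 0.00). The Tie2 ligand gene Angpt1 rose from 48.3, 52.9 and 51.4 CPM to 84.5, 96.8 and 89.8 CPM (0.83). The guidance gene Slit3 fell from 108, 112 and 113 CPM to 68.4, 62.6 and 69.4 CPM (-0.73), and the hormone gene Fgf21 was lower at under 2 CPM (-1.53).

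Of 25 cytokine, chemokine and NF-kB genes 10 were higher and 8 lower (median 0.04). Complement C3 rose from 21.8, 22.9 and 24.6 CPM to 46.9, 50.6 and 46.6 CPM (log2 fold change 1.06 ± 0.071, SE; edgeR, adjusted p = 2.8e-12), beside the rise of the gene for the receptor of its fragment, C3ar1. Il1rl1, the receptor of interleukin-33, rose from 92.8, 104 and 107 CPM to 174, 183 and 173 CPM (0.80). The adhesion gene Vcam1 (0.50) and the chemokine genes Cxcl1 (0.37) and Cxcl5 (0.38) rose, and Ccl7 fell by 0.54 on the log2 scale. Of 23 interferon-stimulated genes 3 were higher and 1 lower, a share of 17.4% that lies below the 31.1% of all genes, and 1 or 2 were called when any 1 library other than siCop1 replicate 3 was left out.

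Lists of proliferation lay near the background. Of 24 DNA replication genes 5 were higher and 3 lower, and of 24 mitosis genes 4 were higher and 2 lower, with medians of -0.02 and 0.02. The 8 replication calls became 4 without siCop1 replicate 2 and 5 without siCTRL replicate 1. Of 22 p53 targets 8 were lower and 0 higher, Cop1 itself among them, a share of 36.4% with a median of -0.09. The cell cycle inhibitor gene Cdkn1a fell from 170, 165 and 169 CPM to 113, 105 and 110 CPM (log2 fold change -0.62 ± 0.038, SE; edgeR, adjusted p = 1.5e-13), Btg2 by 0.55 and Gdf15 by 0.98 on the log2 scale, while Mdm2 (-0.02) and Bax (-0.05) did not pass. In lipid synthesis, 3 of 23 sterol genes were higher and 7 lower, and 3 of 13 fatty acid genes higher and 7 lower. The sterol sensor gene Insig1 (-0.59) fell, and fatty acid synthase (Fasn, 0.36) rose from 391, 414 and 409 CPM to 527, 502 and 527 CPM.

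**Figure D4:**
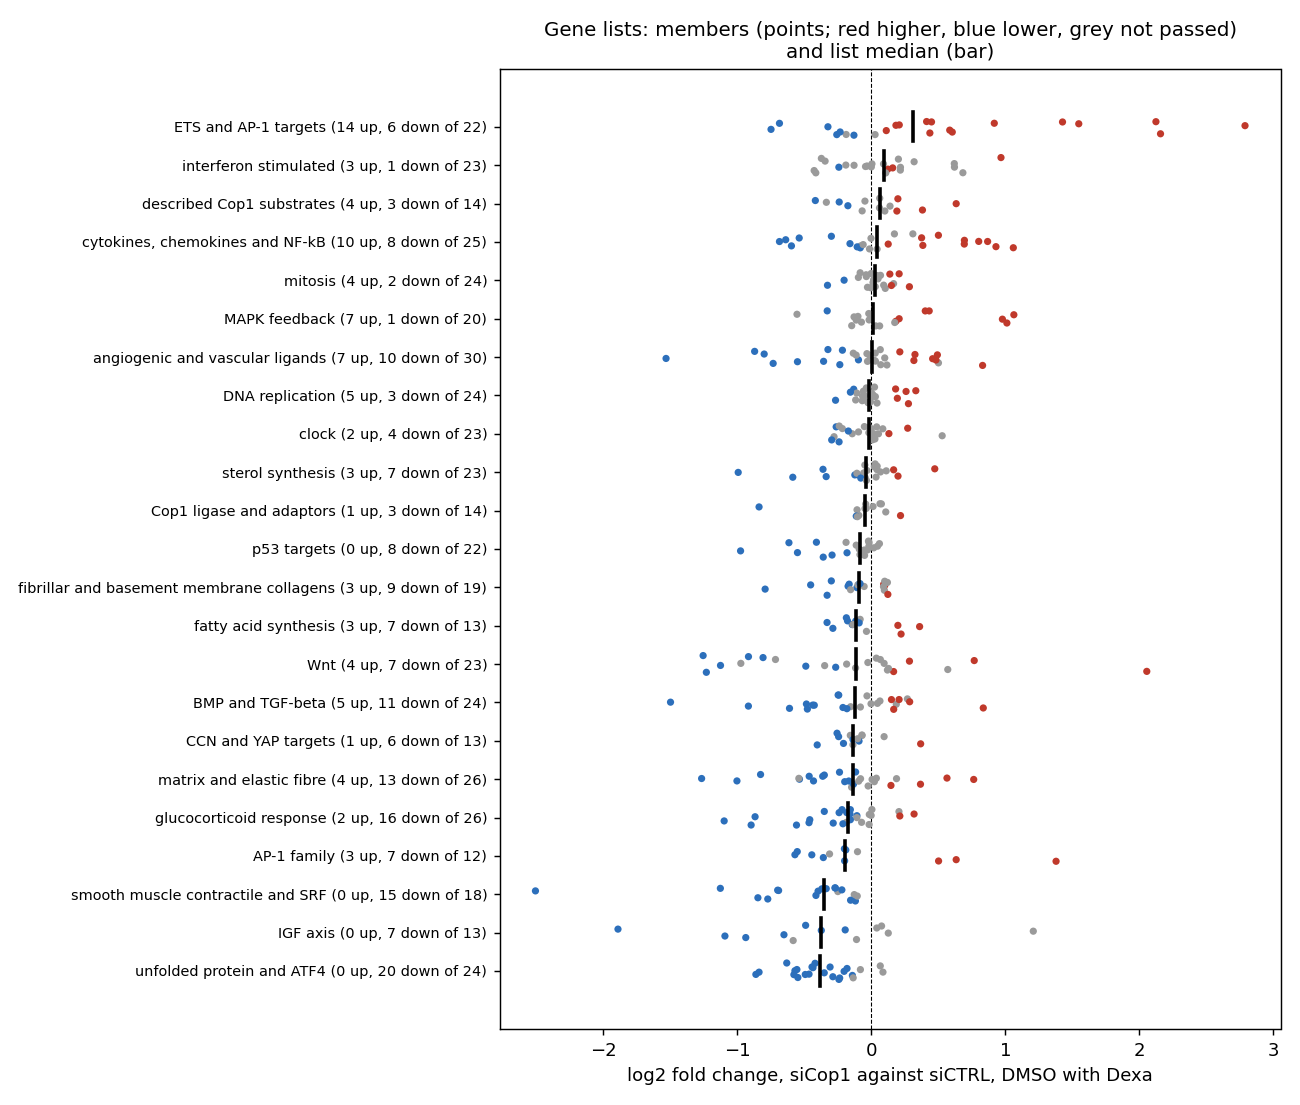
Fold change (log2, siCop1 against siCTRL) of the tested members of each of 23 gene lists, 1 point per gene, with a bar for the list's median and counts beside each name. Red points were called higher, blue lower and grey did not pass; the point of Cop1 itself (-2.48) is not drawn, and the lists run from a median of 0.31 for ETS and AP-1 targets to -0.39 for the unfolded protein and ATF4 genes.

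Of 23 genes of the clock, on which the cryptochromes act, 2 were higher and 4 lower with Dexa (26.1% against 31.1% of all genes; median -0.02), a share near the background. Without Dexa, 11 of the 23 changed with siCop1, against 29.4% of all genes, and the 2 counts were not tested against each other. The kinase genes Csnk1e (log2 fold change 0.27) and Csnk1d (0.13) rose. The repressor gene Per2 fell from 39.5, 42.2 and 41.6 CPM to 33.9, 34.2 and 34.7 CPM (-0.26; edgeR, adjusted p = 0.0045), Nfil3 by 0.30 and Tef by 0.17. Dbp (-0.24) was not called without siCop1 replicate 2 (adjusted p = 0.064). Cry1 (-0.10), Cry2 (-0.02), Arntl (-0.00), Nr1d1 (0.03) and Per1 (-0.00) did not pass.

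Genes known to respond to glucocorticoids were mostly lower with siCop1. Of 26, 2 were higher and 16 lower, 69.2% changed against 31.1% of all genes, with a median of -0.17. Without Dexa, 10 of the 26 changed with siCop1 (median -0.07), against 29.4% of all genes. The counts with and without Dexa were not tested against each other. The receptor gene Nr3c1 (-0.02) did not pass. Fkbp5, a co-chaperone of the receptor, was at 727, 715 and 714 CPM in siCTRL and at 602, 584 and 584 CPM in siCop1 (log2 fold change -0.29 ± 0.029, SE; edgeR, adjusted p = 7.1e-09). Tsc22d3, an anti-inflammatory mediator, fell from 681, 659 and 648 CPM to 574, 570 and 564 CPM (-0.22), and the mTOR inhibitor gene Ddit4 from 252, 249 and 250 CPM to 191, 173 and 180 CPM (-0.47). The metabolic regulator gene Klf15 fell from 14.6, 14.2 and 14.5 CPM to 8.86, 7.56 and 6.87 CPM (-0.90) and the kinase gene Map3k6 from 17.9, 18.2 and 19.4 CPM to 10.3, 10.03 and 10.08 CPM (-0.87). None of these groups overlapped. In DMSO without Dexa, siCop1 also lowered Tsc22d3 (-0.33), Klf15 (-0.87) and Ddit4 (-0.20), while Fkbp5 was higher (0.48) and Map3k6 did not pass (-0.27). Rgs2, a regulator of G protein signalling, rose by 0.32 with Dexa. Per1 stayed at 189 to 195 CPM in siCTRL and 185 to 197 CPM in siCop1, and Zbtb16 (0.00) and the EGF receptor inhibitor gene Errfi1 (-0.02) did not pass. Sgk1 (-0.11) was called with TMM but not with library totals as the scale (-0.06; adjusted p = 0.117). Glul, glutamine synthetase (-0.16; adjusted p = 0.0124), lost its call without siCop1 replicate 2 (0.0501) or siCTRL replicate 1 (0.0642).

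The effect of siCop1 with Dexa was then set beside its effect in other libraries of the series. Without Dexa, in 6 further libraries that share none with the comparison, 4342 genes changed (29.4%). Of the 2126 genes higher with Dexa, 2025 (95.2%) had the same sign without Dexa, 1363 (64.1%) were called in the same direction and 4 in the opposite one. Of the 2473 lower genes, 2394 (96.8%) had the same sign, 1799 (72.7%) were called lower and 9 higher. With KL001 in place of DMSO, both with Dexa, 4441 genes changed (30.1%), and of the genes above 1406 (66.1%) were again called higher and 1812 (73.3%) again lower. In all 4 settings 2407 genes were called in the same direction, 997 higher and 1410 lower, including 160 of the 328 genes past 2-fold. The siRNA label is the same in all 4 settings, so an effect of lower Cop1 and one of any other target of the same siRNA cannot be told apart.

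A test of the difference itself found 99 genes (0.67%) whose siCop1 effect differed between Dexa and its absence in DMSO, 43 more positive and 56 more negative with Dexa. Dkk2 had mean levels of 51.6 ± 1.8 CPM without and 23.1 ± 0.59 CPM with Dexa in siCTRL (SD, n = 3), and 93.4 ± 4.6 and 96.1 ± 2.2 CPM in siCop1. Its siCop1 effect was thus 0.86 without and 2.06 with Dexa, a difference of 1.20 ± 0.079 (SE; edgeR interaction, adjusted p = 2.3e-11). Nptx1 followed the same order, at 11.1 and 3.22 CPM in siCTRL and 36.6 and 25.5 CPM in siCop1, a difference of 1.26 (adjusted p = 4.1e-06). In both genes the siCTRL level was lower with Dexa than without, and the gap to siCop1 was wider there.

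In siCTRL, 3957 of the 14772 genes changed with Dexa (26.8%). Several genes whose level rose with Dexa gave the opposite sign of difference. Others that rose had a positive difference, Tll1 (0.73) among them. The siCTRL level with Dexa enters the difference with a minus sign, so opposite signs are in part built in. Fkbp5 had means of 36.4 CPM without Dexa and 719 CPM with it in siCTRL, and 50.8 and 589.8 CPM in siCop1, so that siCop1 was higher without Dexa (0.48) and lower with it (-0.29), a difference of -0.76 ± 0.048 (SE; edgeR interaction, adjusted p = 2.1e-11). Errfi1 was at 28.2 and 247 CPM in siCTRL and at 51.2 and 244 CPM in siCop1, with an effect of 0.86 without Dexa, -0.02 with it and a difference of -0.88 (adjusted p = 2.3e-11). Fst, the activin antagonist, was at 12.8 and 55.3 CPM in siCTRL and 15.7 and 39.5 CPM in siCop1, and its difference was -0.78 (adjusted p = 4.4e-07). Ctgf, a matricellular growth factor, differed by -0.42, Glul by -0.58 and the secreted glycoprotein gene Stc2 by -0.81. Angptl7, a secreted angiopoietin relative, was raised by siCop1 in both settings, by 2.14 without and 1.20 with Dexa, a difference of -0.94. Among the 26 glucocorticoid genes 5 had such a difference, against 0.67% of all genes. These were Fkbp5, Errfi1, Glul, Ddit4 and Map3k6, each more negative with Dexa. All 5 rose with Dexa in siCTRL, so their shared sign is in part built in. The list was chosen with earlier results of these data known. The calls for Ddit4 and Map3k6 were not stable: Ddit4 (-0.26; adjusted p = 0.0316) was lost without any 1 of 5 libraries (adjusted p from 0.0614 to 0.146). Map3k6 (-0.60; adjusted p = 0.0131) was lost only in a fit of the compared groups alone (0.0509).

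There were 13 genes called in opposite directions with and without Dexa. Akap1, Ctgf, Fam180a, Figf, Fkbp5, Fst, Glul, Tle1 and Vav2 were lower with Dexa and higher without, and Hoxd11, Inhbb, Pcdh18 and Tll1 were higher with Dexa and lower without. Tll1, a protease that processes procollagen and BMP antagonists, was at 16.9 and 20.6 CPM without and with Dexa in siCTRL and at 14.3 and 28.9 CPM in siCop1 (difference 0.73; edgeR interaction, adjusted p = 0.00011). With Dexa, the call for Inhbb (0.17) was lost without siCop1 replicate 1 (adjusted p = 0.101) or siCTRL replicate 1 (0.0802), and that for Akap1 (-0.14) without siCTRL replicate 3 (0.0593). Those for Figf (-0.10) and Pcdh18 (0.18) were lost without siCop1 replicate 1 (0.0851 and 0.0796), siCop1 replicate 3 (0.0639 and 0.0564), siCTRL replicate 1 (0.0869 and 0.114) or siCTRL replicate 3 (0.05005 and 0.0975). These genes were singled out after their values were seen.

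**Figure D5:**
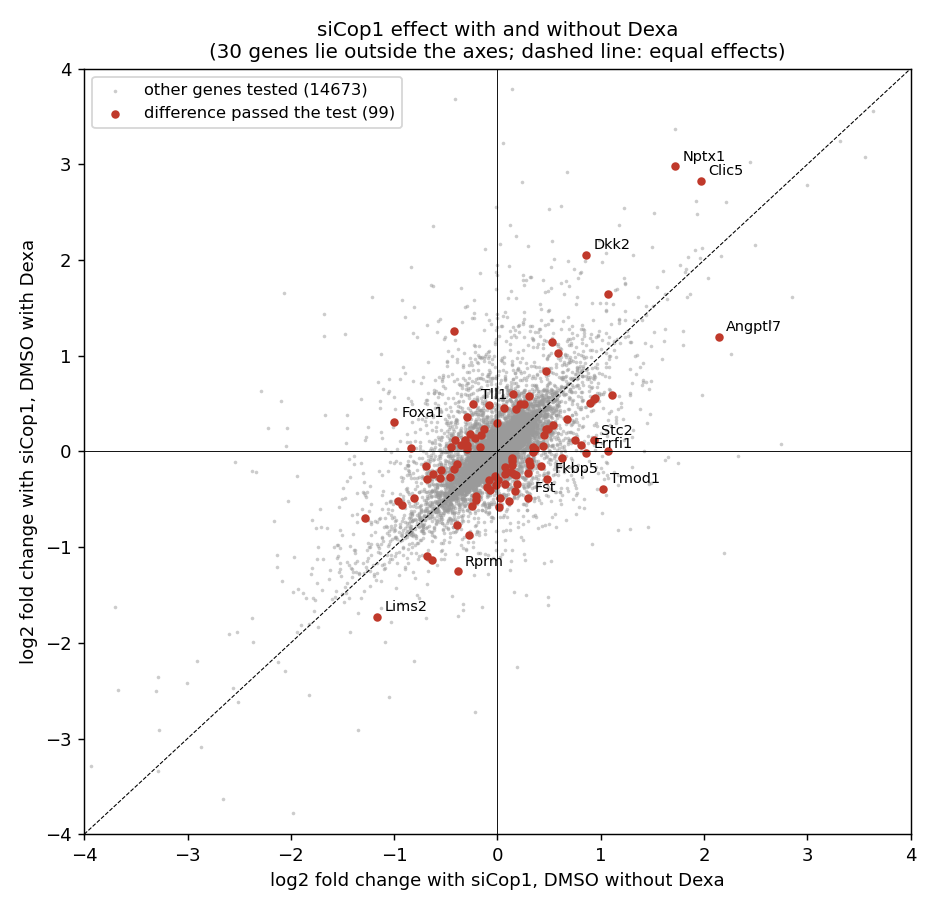
siCop1 effect with Dexa (vertical, log2 fold change) against the siCop1 effect without Dexa (horizontal, log2 fold change) in DMSO, 1 point per gene, with a dashed line for equal effects. The 99 red genes passed the test of the difference, Dkk2 (2.06 against 0.86) above the line and Fkbp5 (-0.29 against 0.48) and Errfi1 (-0.02 against 0.86) below it; 30 genes lie outside the axes.

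Fewer genes separated DMSO from KL001. With Dexa in both, 10 genes (0.0677%) had a siCop1 effect that differed (edgeR interaction, adjusted p below 0.05), against 1023 at an unadjusted p below 0.05. Hmga2 rose by 1.43 in DMSO and by 1.15 in KL001, with means of 250.2 ± 8.3 and 672 ± 17 CPM in DMSO and 299 ± 9.9 and 666 ± 5.8 CPM in KL001 (SD, n = 3; difference 0.27, adjusted p = 0.0038). Grem1 rose by 0.83 in DMSO and 1.29 in KL001 (difference -0.46; adjusted p = 0.0038). The lone gene of the 10 that kept its call in every alternative was Hmga2. The other 8 were Angptl7, Cacna1h, Ccdc80, Ccnd1, Pdss1, Sned1, Thbd and Zfp36l1, and leaving out siCop1 replicate 3 reduced the 10 to 2, siCop1 replicate 1 or siCTRL replicate 1 or 2 to 3.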

How the data were processed

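RNA of 24 libraries was profiled, 3 in each of 8 groups. Per the labels' protocols, stranded mRNA libraries were made and run as single reads on 3 lanes. The submitters' processing notes name bcl2fastq 1.8.4, STAR 2.4.5a, featureCounts, Subread 1.4.6-p3, DESeq2, Picard 1.126 and the builds GRCm38 and mm10, with no role or order. The authors deposited raw read counts for 47480 gene symbols; the sources used here give no strand setting, annotation or treatment of shared reads, so values of genes with close copies or overlapping neighbours are uncertain. Their normalized table was not used.

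Counts were tested in R 4.3.3 with edgeR 4.0.16 (quasi-likelihood, robust; TMM; filterByExpr over 8 groups, minimum count 10, minimum total 15; 14772 genes) on all 24 libraries, 1 mean per group, no covariate, two-sided, with Benjamini-Hochberg adjustment over all genes; "changed" means adjusted p below 0.05. Each standard error was the unshrunken log2 fold change divided by the root of its F statistic. The common biological coefficient of variation was 3.71%. CPM is on the TMM scale and is not scaled to gene length, so levels were not compared between genes. Replicates differed by more than sampling noise (chi-square per degree of freedom 1.57 to 5.54). The procedure was also run on simulated counts with the same spread for every gene and no library that stood apart. That run therefore does not cover libraries such as those that stood apart here.

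The members and lists were chosen with earlier results of these data known. Genes were named by rule: the ligase and substrate lists; the 12 largest changes of each sign among changed genes with a mean of at least 1 CPM and groups that do not overlap; the 6 smallest p-values of each sign; up to 4 members of each sign per list; and up to 6 of each sign per interaction. Other list members and further genes were named after their values were seen. A few genes that count in the lists are not reported here by name. Alternatives were RLE scaling, no low-count filter, DESeq2 1.42.0, a block for the replicate number, only the groups compared, and each of the 6 libraries left out; no scaling factor and leaving out siCTRL replicate 2 with siCop1 replicate 1 were added after seeing the data. Gene positions and promoters are from RefSeq, GRCm38.p6.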

Additional observations from a re-analysis of the deposited data

Results flagged for a closer look

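The genes named in the text for which the test of the difference passed are given here with the size of that difference on the log2 scale (edgeR interaction, adjusted p below 0.05). Values are the siCop1 effect with Dexa minus the siCop1 effect without Dexa, both in DMSO, so a positive value means a more positive siCop1 effect with Dexa.

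The positive differences were Foxa1 1.30, Nptx1 1.26, Dkk2 1.20, Plekha6 0.88, Clic5 0.86, Tll1 0.73, Pcdh18 0.45, Wnt5a 0.43, Etv5 0.39, Hoxd11 0.37, Grem1 0.37, Etv4 0.36, Inhbb 0.32, Rspo3 0.32, Sned1 0.27 and Rspo2 0.20. Dkk2 and Nptx1 were raised by siCop1 in both settings, while Etv5 was lowered in both, by 0.63 without Dexa and 0.24 with it. The pioneer factor gene Foxa1 was called lower without Dexa (-1.0) and did not pass with it (0.31). The Wnt agonist genes Rspo2 and Rspo3 were lowered by siCop1 in both settings and less with Dexa, and the ligand gene Wnt5a was lowered without Dexa (-0.31) and did not pass with it (0.12).

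The negative differences were Tmod1 -1.41, Angptl7 -0.94, Errfi1 -0.88, Rprm -0.87, Stc2 -0.81, Fst -0.78, Fkbp5 -0.76, Map3k6 -0.60, Glul -0.58, Lims2 -0.56, Fam180a -0.52, Tle1 -0.52, Ctgf -0.42, Vav2 -0.39, Akap1 -0.28, Ddit4 -0.26, Figf -0.24, Cyr61 -0.23 and Nfil3 -0.22. Stc2 stood at 23.4 CPM without Dexa and 32.3 CPM with it in siCTRL and at 44.6 and 35.0 CPM in siCop1. Tmod1, a capping protein of actin filaments, was called higher without Dexa (1.02) and did not pass with it (-0.39).

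Some of the calls for a difference with Dexa, of either sign, did not survive leaving out 1 library (edgeR, adjusted p in brackets). Omitting siCop1 replicate 1 ended the call for Clic5 (0.0556), Etv4 (0.0956), Inhbb (0.0735), Nfil3 (0.0537), Plekha6 (0.11), Sned1 (0.149) and Tmod1 (0.0654). For siCop1 replicate 2 left out, it was Ddit4 (0.146), Etv5 (0.0636), Lims2 (0.0694), Plekha6 (0.1), Rprm (0.0731) and Rspo3 (0.0671). Omitting siCop1 replicate 3 ended the call for Clic5 (0.0512), Ddit4 (0.0974), Etv4 (0.0756), Etv5 (0.134), Lims2 (0.082), Nfil3 (0.0824), Plekha6 (0.0974), Rprm (0.0775), Sned1 (0.0884) and Tmod1 (0.0756). For siCTRL replicate 1 left out, it was Clic5 (0.101), Ddit4 (0.0738), Etv5 (0.0545), Lims2 (0.0739), Nfil3 (0.0713), Plekha6 (0.093), Rprm (0.0736), Sned1 (0.0662) and Tmod1 (0.0545). Omitting siCTRL replicate 2 ended the call for Ddit4 (0.0614), Etv4 (0.0675), Etv5 (0.0819), Lims2 (0.0507), Nfil3 (0.0656), Plekha6 (0.0995), Sned1 (0.109) and Tmod1 (0.0507). For siCTRL replicate 3 left out, it was Akap1 (0.0535), Clic5 (0.0941), Ddit4 (0.067), Plekha6 (0.0567), Sned1 (0.0685) and Tmod1 (0.0535).

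For DMSO against KL001, both with Dexa, the difference is the siCop1 effect in DMSO minus that in KL001. It was positive for Pdss1 0.58, Sned1 0.34, Cacna1h 0.29, Hmga2 0.27 and Ccnd1 0.25, and negative for Grem1 -0.46, Thbd -0.45, Angptl7 -0.44, Zfp36l1 -0.37 and Ccdc80 -0.21. The thrombomodulin gene Thbd was lowered by siCop1 in both, by 0.94 in DMSO and 0.49 in KL001. Zfp36l1, an mRNA decay factor gene, had an effect of 0.07 in DMSO and 0.44 in KL001. Leaving out 1 library ended most of these calls too (edgeR, adjusted p in brackets). Omitting siCop1 replicate 1 ended the call for Angptl7 (0.113), Cacna1h (0.132), Ccnd1 (0.112), Pdss1 (0.117), Sned1 (0.117), Thbd (0.125) and Zfp36l1 (0.0654). For siCop1 replicate 2 left out, it was Pdss1 (0.124), Thbd (0.0833) and Zfp36l1 (0.096). Omitting siCop1 replicate 3 ended the call for Angptl7 (0.155), Cacna1h (0.136), Ccdc80 (0.0762), Ccnd1 (0.0762), Pdss1 (0.0762), Sned1 (0.0812), Thbd (0.0762) and Zfp36l1 (0.0765). For siCTRL replicate 1 left out, it was Angptl7 (0.0685), Cacna1h (0.0591), Ccnd1 (0.0591), Pdss1 (0.11), Sned1 (0.0685), Thbd (0.0831) and Zfp36l1 (0.0591). Omitting siCTRL replicate 2 ended the call for Angptl7 (0.0673), Cacna1h (0.136), Ccdc80 (0.0571), Pdss1 (0.136), Sned1 (0.136), Thbd (0.136) and Zfp36l1 (0.136). For siCTRL replicate 3 left out, it was Cacna1h (0.0565), Pdss1 (0.0579), Sned1 (0.0565) and Thbd (0.0565).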

How the results depend on the processing

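Of the 260 named genes that changed, 204 kept their direction and call in every alternative, 56 lost the call in at least 1, and 0 changed sign. The count of 4599 changed genes was 4589 with RLE scaling, 4101 with DESeq2, 4540 with no filter, 4470 with only the groups compared, 3805 to 4105 with 1 library left out and 3575 without both siCTRL replicate 2 and siCop1 replicate 1. The 328 genes past 2-fold became 525 with no filter. The 99 differences between Dexa and its absence became 230 with no filter and 68 to 88 with libraries left out. The 10 differences between DMSO and KL001 became 59 with no filter, 24 with DESeq2, and 1 to 10 with libraries left out; the cause was not tested. Of the 35 named differences with Dexa, 15 lost the call in at least 1 alternative, and that for Plekha6 was lost without any 1 of the 6 libraries.

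Between the siCop1 and siCTRL libraries compared, replicate numbers did not pair the samples: deviations of same-numbered libraries correlated at 0.026, -0.046 and 0.066. Pairing by number across settings with the same siRNA, which bears on the interaction tests, was not examined in this way. With the number as a block, 4543 genes changed, 97 differed with Dexa and 5 with KL001.

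Among genes that did not pass, some estimates near 0 changed sign (log2). Arntl was at 0.00061 with RLE scaling, 0.00060 with DESeq2, 0.00023 with the block and 0.0019 with only the groups compared, Per1 at 0.00062 with only the groups compared, and Zbtb16 at -0.0015 with no filter. With no scaling factor the values were Arntl 0.044, Per1 0.043, Cand1 0.0067, Cry2 0.026, Errfi1 0.028, Mdm2 0.028, Nr3c1 0.030 and Rbx1 0.0020. With libraries left out the ranges were Arntl -0.028 to 0.035, Ccnd1 -0.0034 to 0.044, Cebpa -0.014 to 0.126, Cebpb -0.143 to 0.0049, Errfi1 -0.038 to 0.0054, Nr3c1 -0.097 to 0.036, Per1 -0.028 to 0.023, Rbx1 -0.071 to 0.014 and Zbtb16 -0.081 to 0.052.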

Other observations

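Further genes past 2-fold, outside the lists and chosen after their values were seen, add to the account. The gene of the membrane protease Adam8 rose from 10.7, 10.9 and 9.92 CPM in siCTRL to 26.0, 28.8 and 27.0 CPM in siCop1 (log2 fold change 1.38 ± 0.063, SE; edgeR, adjusted p = 2.2e-16). Itgb8, an integrin chain that activates latent TGF-beta, rose from 9.54, 10.8 and 11 CPM to 22.9, 23.4 and 22.3 CPM (2.19-fold), and Gfra1, a receptor of the neurotrophic factor GDNF, from 5.29, 4.74 and 4.82 CPM to 14.7, 16 and 14.8 CPM (1.61). The Wnt feedback inhibitors Rnf43 (1.03) and Apcdd1 (1.0) rose as well. None of these groups overlapped. Among the lower genes, the natriuretic peptide clearance receptor gene Npr3 fell from 79.3, 87.8 and 81.8 CPM to 27.2, 27.7 and 30.3 CPM (-1.55), the adhesion gene Mcam from 70.3, 71.5 and 67.7 CPM to 33.5, 35.2 and 32.5 CPM (-1.05), and the retinoic acid hydroxylase gene Cyp26b1 from 15.5, 18.1 and 18.6 CPM to 7.41, 6.71 and 7.41 CPM (-1.28). The hedgehog target gene Gli1 (-1.01), the transcription factor gene Sox11 (-1.15), the proteoglycan gene Prelp (-1.08) and the antigen presentation gene Cd74 (-1.25) fell too.

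A further 3 genes, known from secretory epithelium and also chosen after their values were seen, were higher with siCop1 in calls that depended on single libraries. The lactoferrin gene Ltf was at 8.02, 6.71 and 4.58 CPM in siCTRL and at 25, 22.4 and 23.0 CPM in siCop1 (log2 fold change 1.86; edgeR, adjusted p = 0.0159), and the lectin gene Reg3g was at 14.8, 19.6 and 11.6 CPM against 50.1, 56.3 and 61.2 CPM (1.87; adjusted p = 0.024). The mucin gene Muc5ac was at 4.09, 3.95 and 1.79 CPM against 13.8, 6.21 and 12.1 CPM (1.71; adjusted p = 0.0296). The groups did not overlap in these genes, and the airway epithelium markers moved the same way; their part in the result was not tested. The call for Ltf was lost without siCTRL replicate 3 (adjusted p = 0.0612). That for Reg3g was lost without siCTRL replicate 1 (0.0661), siCTRL replicate 3 (0.0808), siCop1 replicate 2 (0.0508) or siCop1 replicate 3 (0.06), and that for Muc5ac without siCTRL replicate 1 (0.0507), siCTRL replicate 3 (0.109), siCop1 replicate 1 (0.102) or siCop1 replicate 3 (0.0785).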
